A study of Nannospalax ehrenbergi and Mus musculus with 14 samples.

Results

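miR-210 is a microRNA, a short RNA that binds messenger RNAs and lowers their translation or stability. Its gene is a direct target of the hypoxia-inducible factors, the transcription factors that build up when oxygen falls, and it is among the microRNAs most regularly raised by low oxygen in cultured cells and in solid tumors. Its known targets include Iscu, an iron-sulfur cluster scaffold of mitochondria, and Efna3, an ephrin ligand that restrains vessel growth. The hairpin gives 2 products, miR-210-3p from its 3′ arm, the arm through which these targets are bound, and miR-210-5p from its 5′ arm. Both were chosen by name, and they are 2 of the 1326 microRNA names in the deposited values.

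The blind mole rat *Spalax* lives underground and tolerates low oxygen. Animals had been given a single injection of the carcinogen 3-methylcholanthrene (3MCA) under the skin at the left side of the neck, at 1 mg in 500 μl for *Spalax* and 200 μg in 200 μl for mice. Small RNA libraries were made from the lesion at the injected side (IS) and from neck muscle of the uninjected side (UIS). The granuloma group held 2 female *Spalax*, Sp600 and Sp976, operated on 14 and 16 months after the injection. The *Spalax* fibrosarcoma group held 1 female, Sp2240, at 18 months and 1 male, Sp2230, at 30 months. The mouse fibrosarcoma group held 3 male C57BL/6 mice, M512, M1023 and M1019, operated on after 11, 12 and 14 weeks. Mice were 3 to 4 months old. *Spalax* were wild-caught and from about 2 to over 10 years old, and the labels do not give the age of each animal. No genetic change is given for any animal, and every animal had received 3MCA, so that UIS was muscle of a treated, lesion-bearing animal. In every comparison across species, those of muscle included, dose, time since injection, age and species cannot be told apart. Sex was not balanced either, as all mice were male and Sp2230 was the only male among these *Spalax*.

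Both sides were sequenced for Sp600, Sp976, Sp2240, Sp2230, M512 and M1023. For M1019 only the IS library could be assigned, and 1 further mouse UIS library carries an animal number that matches no label (called unnumbered here). The 14 libraries held from 2034574 reads (Sp2240 IS) to 13982842 reads (M512 UIS). In every animal with both sides the IS library was the shallower one. From 482 to 538 microRNA names had reads in a *Spalax* library and from 771 to 1083 in a mouse library, and *Spalax* reads were also assigned to mouse names. UIS libraries were muscle by their markers: 7 muscle microRNAs such as miR-1a-3p and miR-133a-3p took 35.2% to 37.3% of *Spalax* UIS reads and 27.7% to 29.8% of mouse UIS reads. In IS the same list took 0.00959% to 0.165% in *Spalax*, but 3.94% in M512, 2.57% in M1023 and 0.010% in M1019.

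The mouse gene *Mir210* lies on the minus strand at chr7:141221384-141221493 of GRCm38 (GENCODE M21, ENSMUSG00000065551.1). No other annotated gene overlaps it. Its neighbours are *Rassf7*, which ends 2725 bases before it on the map, and *Phrf1*, which starts 7290 bases after it, both on the plus strand. The annotated transcript is shown because it places the measured arms. It is 110 bases long and folded in silico into a stem of 32 base pairs with a minimum free energy of -48 kcal/mol.
Mir210 hairpin: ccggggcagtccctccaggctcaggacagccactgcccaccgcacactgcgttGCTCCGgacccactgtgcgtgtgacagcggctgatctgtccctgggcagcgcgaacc
The capitals mark the predicted terminal loop, bases 54 to 59 of the transcript counted from its 5′ end. The stem bases before the loop (14 to 53) hold the 5p product and those after it (60 to 99) hold the 3p product. Reads were assigned to an arm by microRNA name, and the *Spalax* sequence was not used here.

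miR-210 was moderately abundant in all 14 libraries. The main arm was miR-210-3p, with 226 to 5546 reads a library, while miR-210-5p had 39 to 650 reads. Every library was therefore well above the limit of 3 reads used as a detection floor, which equals at most 1.47 ppm (parts in 1e+06 reads) of a library. As a share of all microRNA reads, miR-210-3p made up 19.7 to 48.5 ppm in the 7 UIS libraries and 100.1 to 904.2 ppm in the 7 IS libraries. In order of abundance among all names it stood at position 87 in IS of Sp2230 and at position 205 in IS of M1019, the highest and lowest positions. These bulk shares cannot tell a change in the number of cells of a type from a change in the RNA per cell.

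Levels below are normalised read counts, reads divided by the size factor of the library. In the granuloma animals miR-210-3p stood at 1686 in IS and 795 in UIS of Sp600, and at 1133 in IS and 583 in UIS of Sp976. In the *Spalax* fibrosarcoma animals it stood at 2827 in IS and 533 in UIS of Sp2240, and at 3020 in IS and 589 in UIS of Sp2230. All 4 *Spalax* lesions were thus above all 4 *Spalax* muscles, as for 17.9% of the 447 microRNAs tested in *Spalax*, and both fibrosarcomas were above both granulomas, as for 26.6%. In the mouse table, normalised on its own, miR-210-3p stood at 3471 in IS and 617 in UIS of M512, at 1842 in IS and 410 in UIS of M1023, at 347 in IS of M1019 and at 307 in the unnumbered UIS library. On this scale the tumor of M1019 fell within the range of the mouse muscles, whereas the other mouse tumors were above it. As a share of library reads, miR-210-3p of the M1019 tumor was above the mouse muscles, at 100.1 ppm against 19.7 to 23.0 ppm.

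**Figure D1:**
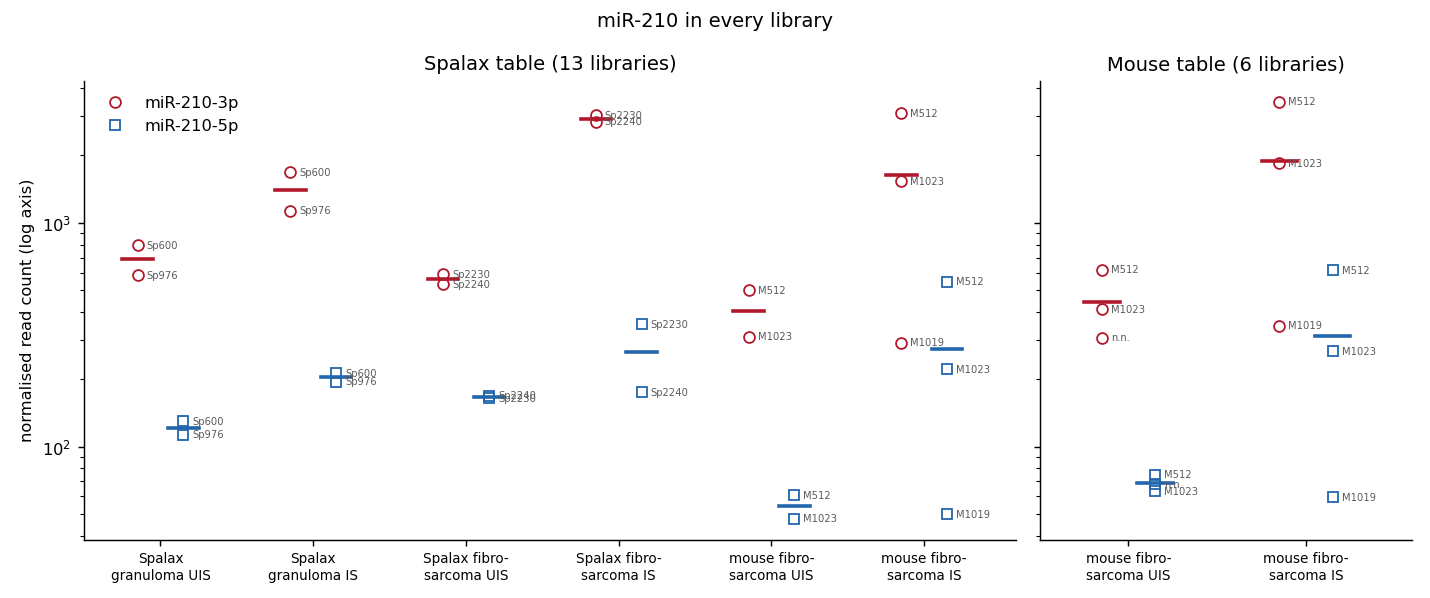
Normalised read count (log axis) of miR-210-3p (circles) and miR-210-5p (squares) in each library by group, with group means as bars and animal numbers beside the points (n.n., the unnumbered library). The left panel shows the 13 libraries of the Spalax table and the right panel the 6 of the mouse table. IS exceeded UIS for miR-210-3p in both *Spalax* groups without overlap. The tumor of M1019 lay within or below the range of the mouse muscles for both arms on these scales, but not as a share of library reads.

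The other product, miR-210-5p, had fewer reads than miR-210-3p in every library. In the granuloma animals it stood at 213 in IS and 130 in UIS of Sp600, and at 195 in IS and 113 in UIS of Sp976. In the fibrosarcoma animals it stood at 176 in IS and 169 in UIS of Sp2240, and at 354 in IS and 165 in UIS of Sp2230. Its level in the Sp2240 tumor was hence close to that in the muscle of the same animal, although miR-210-3p differed there. In mice it stood at 615 in IS and 74.9 in UIS of M512, at 267 in IS and 63.1 in UIS of M1023, at 59.5 in IS of M1019 and at 67.9 in the unnumbered UIS library. As for the other arm, the M1019 tumor was not above the range of the mouse muscles on this scale. As a share of library reads its miR-210-5p was above them, at 17.1 ppm against 2.79 to 4.37 ppm.

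Within animals, both arms were higher in IS than in UIS in all 6 animals with both sides. M1019 is not among these 6, as no UIS library could be assigned to it. Its tumor was the mouse tumor not above the range of the mouse muscles on this scale. For miR-210-3p the ratio of IS to UIS was 2.12 in Sp600 and 1.94 in Sp976, against 5.13 in Sp2230, 5.30 in Sp2240, 5.63 in M512 and 4.49 in M1023. The mean log2 change was 1.91 ± 0.70 (SD, n = 6), with an exact two-sided sign-flip test giving p = 0.03125, the smallest that 6 pairs allow. Of the 403 microRNAs tested in both species, 72 (17.9%) were higher in IS in all 6 animals. For miR-210-5p the ratio ran from 1.04 in Sp2240 to 8.20 in M512, and the mean log2 change was 1.29 ± 1.07 (SD, n = 6; exact p = 0.03125, a test added after the values had been seen). As a share of library reads the IS to UIS ratio of miR-210-3p was larger, from 6.82 in Sp976 to 39.4 in M512, in libraries whose muscle microRNA share differs between the sides as given above.

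**Figure D2:**
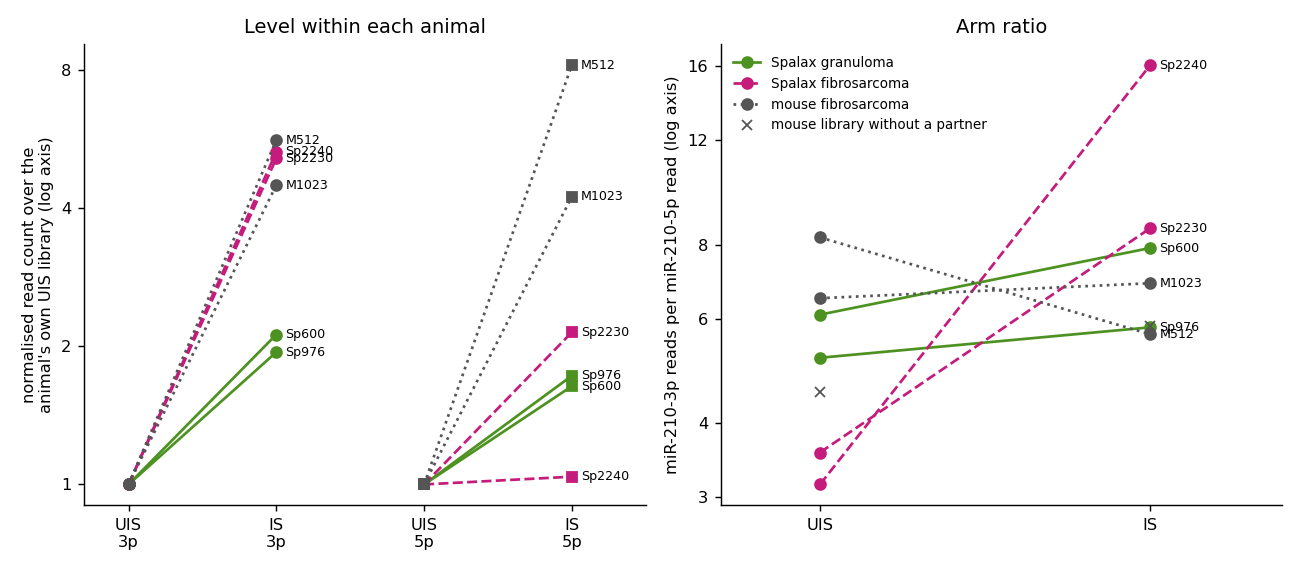
Left, normalised read count of each arm in IS over that in UIS of the same animal (log axis), for the 6 animals with both sides. Right, miR-210-3p reads per miR-210-5p read (log axis), with crosses for the mouse libraries without a partner. The miR-210-3p ratio was 1.94 to 2.12 in the granuloma animals and 4.49 to 5.63 in the other paired animals, which do not include M1019. The arm ratio differed most between sides in the *Spalax* fibrosarcoma animals.

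miR-210-3p rose in the *Spalax* fibrosarcomas. Its mean normalised read count was 2923 ± 136 in IS and 561 ± 39.3 in UIS (SD, n = 2 each), and the log2 difference was 2.38 (SE 0.39, 95% interval 1.46 to 3.30, limma adjusted p = 0.00332). Among the 447 microRNAs tested, 15.2% rose and 22.1% fell in this comparison, and 32.2% had both IS values above both UIS values, as both arms did. The median of all microRNAs was -0.23, and miR-210-3p had the 55th highest difference. miR-210-5p did not pass the test, with a log2 difference of 0.58 (SE 0.47, 95% interval -0.53 to 1.68, limma adjusted p = 0.369), and passed only with libraries scaled to total reads (2.25, limma adjusted p = 0.00605). The call for miR-210-3p was kept under all 15 alternatives run, in which the log2 difference lay between 2.18 and 4.07.

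In the granulomas neither arm passed limma on the deposited scale. miR-210-3p averaged 1409 ± 392 in IS and 689 ± 150 in UIS (SD, n = 2 each), a log2 difference of 1.02 (SE 0.39, 95% interval 0.10 to 1.94, limma adjusted p = 0.0658). In this comparison 41.4% of the microRNAs had both IS values above both UIS values, as both arms did, 25.5% rose and 22.8% fell, and the median of all was 0.13. miR-210-5p gave 0.74 (SE 0.47, 95% interval -0.36 to 1.85, limma adjusted p = 0.228). With DESeq2 in place of limma, miR-210-3p passed at nearly the same size, with a log2 difference of 1.03 (DESeq2 adjusted p = 0.0214). With libraries scaled to their total reads both arms passed, at 2.86 and 2.57 (limma adjusted p = 0.000897 and 0.00283), while the median of all microRNAs moved to 2.02.

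In the mouse fibrosarcomas neither arm passed limma on the deposited scale with all 6 libraries. miR-210-3p averaged 1887 ± 1563 in IS and 445 ± 158 in UIS (SD, n = 3 each), a log2 difference of 1.61 (SE 0.83, 95% interval -0.36 to 3.59, limma adjusted p = 0.135). miR-210-5p averaged 314 ± 280 in IS and 68.7 ± 5.94 in UIS, a log2 difference of 1.63 (SE 0.82, 95% interval -0.30 to 3.57, limma adjusted p = 0.126). In this comparison 32.2% of the 547 microRNAs rose, 25.6% fell, and 36.6% had all IS values above all UIS values, which neither arm had. The result depended on the tool, the scaling and the libraries. With all 6 libraries, miR-210-3p and miR-210-5p passed in DESeq2 (2.09 and 2.19, DESeq2 adjusted p = 0.0187 and 0.0133), in edgeR with TMM factors (2.18 and 2.27, edgeR adjusted p = 0.0471 and 0.0461) and in limma under total scaling (3.99 each, limma adjusted p = 0.00229 and 0.00274, with the median of all microRNAs at 2.76). Without the M512 tumor the log2 differences were 0.91 and 0.87 in limma. Without the M1019 tumor they were 2.56 for miR-210-3p (limma adjusted p = 0.00834) and 2.55 for miR-210-5p (limma adjusted p = 0.0107). With the animal as a block, which uses the pairs M512 and M1023 alone, they were 2.33 (limma adjusted p = 0.0185) and 2.54 (limma adjusted p = 0.0316).

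The M1019 tumor also differed from the other mouse tumors in its cell type markers. Leukocyte microRNAs (4 names, among them miR-142a-3p and miR-223-3p) took 1.72% of its reads against 0.323% in M512 and 0.724% in M1023, and the 2 endothelial names, miR-126a-3p and miR-126a-5p, took 1.64% against 0.343% and 0.695%. The 3 fibroblast names, among them miR-199a-3p and miR-214-3p, took 4.57% against 4.25% and 8.77%. Its muscle share was the lowest of the mouse tumors, as given above. The miR-210 level of this tumor was the lowest of the mouse tumors, as normalised read count and as share of reads. The part of these markers in that level was not tested.

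In *Spalax* the marker shares also moved with the side. Fibroblast microRNAs took 10.7% to 11.1% of granuloma IS reads and 3.02% to 5.31% of fibrosarcoma IS reads, against 0.390% to 1.00% in *Spalax* UIS. Leukocyte microRNAs took 0.675% to 2.30% in IS and 0.0597% to 0.0875% in UIS. The endothelial names took 0.395% to 0.743% in IS and 0.784% to 0.993% in UIS, and the 5 epithelial names took at most 0.0130% in any *Spalax* library. Red cell microRNAs (3 names, among them miR-451a) took 0.263% to 1.25% in *Spalax* IS, 1.46% to 2.66% in *Spalax* UIS, 0.584% to 3.31% in mouse IS and 7.17% to 18.0% in mouse UIS. The only marker with no reads in a group was miR-133a-5p, in *Spalax* fibrosarcoma IS. The part of the cell makeup in the miR-210 differences was not tested.

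The lesion types were compared directly within *Spalax*. Both granuloma animals were operated on earlier than either fibrosarcoma animal, and the only male bore a fibrosarcoma. Lesion type therefore cannot be told apart from time since injection or, in part, from sex. miR-210-3p was 1.08 lower on the log2 scale in granuloma IS than in fibrosarcoma IS (SE 0.39, 95% interval for granuloma minus fibrosarcoma -2.0 to -0.16, limma adjusted p = 0.112), with the non-overlap given above. In this comparison 18.8% of the microRNAs passed the test. The change from UIS to IS was smaller in the granuloma animals by a log2 difference of -1.36 (SE 0.56, 95% interval -2.66 to -0.06, limma adjusted p = 0.212), an interval that excludes 0 before adjustment only. For that difference of changes 3.80% of the microRNAs passed, a share that the fit moved between 0 and 69 microRNAs. For miR-210-5p the difference of changes was 0.17 (SE 0.67, 95% interval -1.40 to 1.73, limma adjusted p = 0.915). Between the muscles neither arm passed the test: miR-210-3p gave 0.28 (95% interval -0.64 to 1.20) and miR-210-5p gave -0.46 (95% interval -1.56 to 0.65) for granuloma UIS minus fibrosarcoma UIS, with adjusted p = 1 in limma. There 0% of the microRNAs passed in limma, edgeR or DESeq2, and 5 had an unadjusted p under 0.05 in limma.

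The species were compared only in the jointly normalised table, in which the mouse UIS group holds M512 and M1023. In muscle, miR-210-3p stood at 533 to 795 in the 4 *Spalax* and at 501 in M512 and 310 in M1023. miR-210-5p stood at 113 to 169 in *Spalax* and at 60.8 and 47.6 in the same mice. Both arms were thus higher in every *Spalax* muscle than in either mouse muscle, as were 21.6% of the 607 microRNAs tested. Neither difference passed the test: it was 0.65 for miR-210-3p (SE 0.75, 95% interval -1.01 to 2.31, limma adjusted p = 0.537) and 1.39 for miR-210-5p (SE 0.76, 95% interval -0.31 to 3.08, limma adjusted p = 0.181), while 39.7% of the microRNAs passed in either direction. The median difference of all microRNAs between the muscles was -0.31. Fitted on the muscle libraries alone, so that the spread among tumors no longer entered, the miR-210-5p difference of 1.39 passed (limma adjusted p = 0.0153). Whether the assignment of *Spalax* reads to mouse names shifted levels between the species was not tested.

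The fibrosarcomas of both species overlapped. On the joint scale miR-210-3p stood at 2827 and 3020 in the *Spalax* tumors and at 3092, 1532 and 292 in the tumors of M512, M1023 and M1019. The *Spalax* values thus fell between the highest and the middle mouse value. The log2 difference was 1.39 (SE 0.79, 95% interval -0.36 to 3.14, limma adjusted p = 0.164), and 53.9% of the microRNAs passed. The median difference of all microRNAs was -0.65 there. miR-210-5p gave 0.44 (SE 0.80, 95% interval -1.35 to 2.23, limma adjusted p = 0.674), which turned to -0.48 without M1019. The change from muscle to fibrosarcoma differed between *Spalax* and mouse by 0.88 for miR-210-3p (95% interval -1.71 to 3.48, limma adjusted p = 0.624) and by -1.17 for miR-210-5p (95% interval -3.83 to 1.48, limma adjusted p = 0.510), while 26.0% of the microRNAs passed. The miR-210-3p difference of changes was -0.08 without the M1019 tumor, 1.62 without the M512 tumor, 0.37 in DESeq2, 0.38 in edgeR with TMM factors and 0.14 under total scaling. The granuloma change minus the mouse change was -0.48 for miR-210-3p (95% interval -3.07 to 2.12) and -1.0 for miR-210-5p (95% interval -3.66 to 1.65), with 14.7% (89 microRNAs) passing in limma, against 49 microRNAs in DESeq2 and 0 in edgeR, where 97 had an unadjusted p under 0.05 with TMM factors. Without M512 the miR-210-3p value was 0.26. These intervals are wide enough to hold a change that is equal or several-fold unequal between the species.

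**Figure D3:**
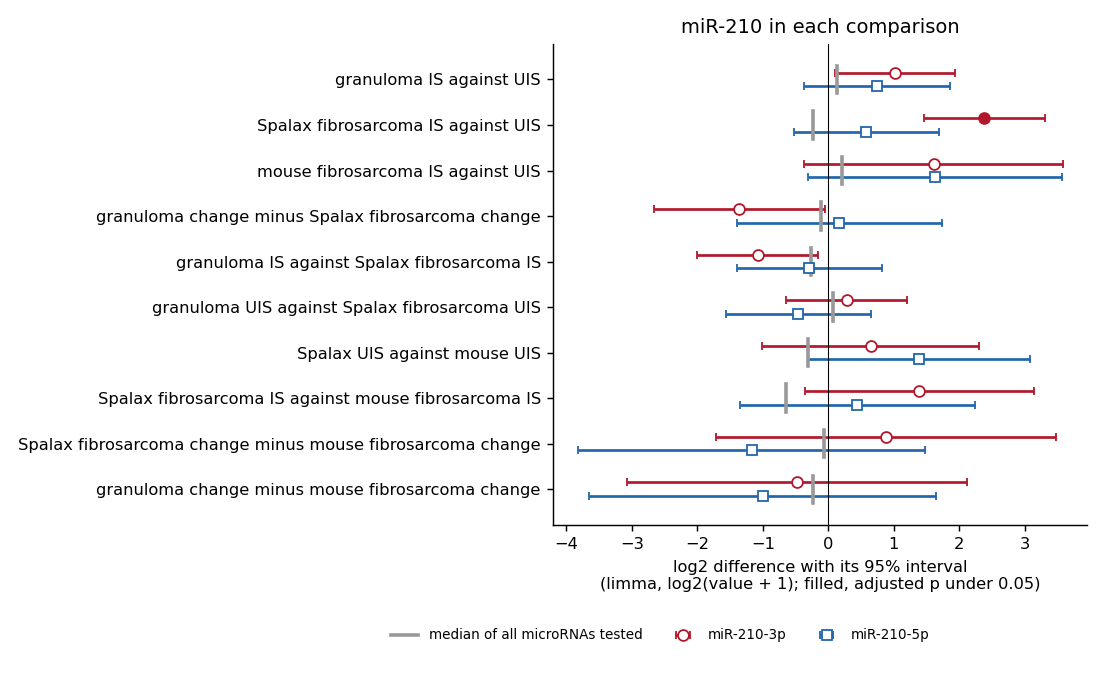
Log2 differences (limma on log2(value + 1)) of miR-210-3p (circles) and miR-210-5p (squares) with 95% intervals for the 10 comparisons, and the median of all microRNAs tested (grey bars). Filled symbols passed an adjusted p of 0.05. Only miR-210-3p in the *Spalax* fibrosarcomas did, with 2.38.

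On the joint scale the groups fell in the following order of mean miR-210-3p: *Spalax* fibrosarcoma IS (2923), mouse fibrosarcoma IS (1639), granuloma IS (1409), granuloma UIS (689), *Spalax* fibrosarcoma UIS (561) and mouse UIS (405). The mouse tumors, at 292 to 3092, overlapped every other group, and the *Spalax* muscle groups overlapped each other. For miR-210-5p the order was mouse fibrosarcoma IS (273), *Spalax* fibrosarcoma IS (265), granuloma IS (204), *Spalax* fibrosarcoma UIS (167), granuloma UIS (122) and mouse UIS (54.2), where the mouse tumors, at 50.0 to 547, overlapped every other group, and both *Spalax* tumor groups overlapped each other.

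The ratio of the arms differed most between sides in the *Spalax* fibrosarcoma animals. miR-210-3p reads per miR-210-5p read numbered 3.15 in UIS and 16.1 in IS of Sp2240, and 3.57 in UIS and 8.53 in IS of Sp2230. In the granuloma animals the ratio was 6.10 in UIS and 7.90 in IS of Sp600, and 5.16 in UIS and 5.81 in IS of Sp976. In mice it was 8.23 in UIS and 5.65 in IS of M512, 6.50 in UIS and 6.89 in IS of M1023, 5.84 in IS of M1019 and 4.52 in the unnumbered UIS library. The *Spalax* fibrosarcoma animals thus held both the lowest muscle ratios and the highest tumor ratios. This ratio is taken within a library, so that no size factor enters it.

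miR-210-3p made up 75.9% of the reads of both arms in UIS of Sp2240 (Wilson 95% interval 72.5% to 79.0%) and 94.1% in IS (92.8% to 95.3%). In Sp2230 it made up 78.1% in UIS (74.7% to 81.2%) and 89.5% in IS (88.7% to 90.2%). The intervals did not overlap in either animal, and they cover counting error only. In Sp976 the share was 83.8% in UIS (80.4% to 86.6%) and 85.3% in IS (83.0% to 87.3%), with overlap. The intervals also overlapped in Sp600, M1023 and M512. In M512 the share was lower in IS (85.0%, 83.8% to 86.1%) than in UIS (89.2%, 85.5% to 92.0%), and the overlap was slight. Overlap of such intervals does not show that the shares are equal. Over the 6 animals the log2 arm ratio was higher in IS by 0.62 ± 1.02 (SD), in 5 of 6 animals, and an exact two-sided sign-flip test gave p = 0.21875. Taking the mean of each animal, the log2 arm ratio was 2.63 ± 0.20 in 4 *Spalax* and 2.68 ± 0.12 in 3 mice (SD; M1019 entered with its tumor alone, the other animals with both sides), with p = 0.743 in an exact two-sided permutation test that can reach 0.0571 at the lowest. With sides kept apart, a split added after the values had been seen, *Spalax* was lower in UIS by a log2 difference of -0.51 (exact permutation p = 0.229) and higher in IS by 0.54 (exact permutation p = 0.171).

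For context, 131 hairpins had both arms tested in *Spalax*. In the fibrosarcomas the log2 difference of miR-210-3p minus that of miR-210-5p was 1.80, the 8th highest, and 16 of the 131 hairpins were at least as far from 0 in either direction. In the granulomas it was 0.28 (54th highest), and among 150 hairpins in mice it was -0.02 (81st highest). The value of 1.80 in the *Spalax* fibrosarcomas lay just inside the 5th to 95th percentile of the hairpins, -1.85 to 1.83. For the granuloma change minus the fibrosarcoma change the arm difference was -1.53 (126th highest of 131). That was outside the 5th to 95th percentile, -1.32 to 1.24. No limit on reads beyond the filter of the tests was set for these hairpins. This description was added after the values had been seen.

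Among other microRNAs tied to low oxygen, more fell than rose on the deposited scale. A list of 13 names reported as induced by hypoxia in cultured cells (the miR-23, miR-24, miR-26, miR-27, miR-103/107 and miR-181 families) was tested in full. In the granulomas 1 of 13 rose and 6 fell, in the *Spalax* fibrosarcomas 2 rose and 5 fell, and in the mouse fibrosarcomas 1 rose and 8 fell. Over all microRNAs tested 25.5%, 15.2% and 32.2% rose and 22.8%, 22.1% and 25.6% fell. The 8 falls in mice were 5 with the animal as a block and 5 in edgeR with TMM factors, and with the block 0, 1 and 0 of the 13 rose in the 3 comparisons. The list's median log2 difference was -0.51, -0.19 and -1.11 in these comparisons, beside medians over all microRNAs of 0.13, -0.23 and 0.21. When libraries were scaled to their total reads instead, 7, 8 and 7 of the 13 rose and 1, 1 and 0 fell. Of all microRNAs, 262 of 451, 198 of 451 and 421 of 588 rose under that scaling, and their median moved to 2.02, 1.44 and 2.76. Relative to that median the list stood at -0.69, 0.06 and -1.48 under total scaling, and at -0.64, 0.04 and -1.32 under the size factors.

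The largest changes of this list were falls, each on the deposited scale. miR-26a-5p, a microRNA that is also high in skeletal muscle, fell in all 3 comparisons, with log2 differences of -3.11 in the granulomas, -2.24 in the *Spalax* fibrosarcomas and -3.02 in the mouse fibrosarcomas (SE 0.30, 0.30 and 0.27, limma adjusted p = 0.000342, 0.00148 and 0.000581). miR-27b-3p gave -2.24 in granuloma and -2.53 in *Spalax* fibrosarcoma (limma adjusted p = 0.000703 and 0.000719). miR-107-3p gave -2.23 in the granulomas (limma adjusted p = 0.00803), miR-23b-3p gave -2.19 in the *Spalax* and -1.80 in the mouse fibrosarcomas (limma adjusted p = 0.00325 and 0.0268, the latter 0.102 with the block), and miR-26b-5p gave -2.18 in the mouse fibrosarcomas (limma adjusted p = 0.00231). Under total scaling several of these values passed 0: miR-26b-5p was at 0.20 and miR-23b-3p at 0.59 in the mouse fibrosarcomas. The member past the threshold upward in all 3 comparisons was miR-181a-1-3p, with 1.28, 1.65 and 1.32, and it was named after its values had been seen (limma adjusted p = 0.0376, 0.0176 and 0.0153). With the animal as a block it passed only in the *Spalax* fibrosarcomas (limma adjusted p = 0.0881, 0.0489 and 0.0902). The other member that rose, also named after its value was seen, was miR-103-3p in the *Spalax* fibrosarcomas (1.16, limma adjusted p = 0.0316, and 0.0527 with the block). In edgeR with TMM factors neither passed in *Spalax* (edgeR adjusted p = 0.0614 for miR-181a-1-3p in the granulomas, and 0.0539 and 0.103 for miR-181a-1-3p and miR-103-3p in the fibrosarcomas).

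A second list held 7 names known to act on Hif1a or on the breakdown of its protein. In each of the 3 comparisons 2 of the 7 rose and 0 fell in limma (the lowest adjusted p below 0 was 0.184, for miR-20b-5p in the *Spalax* fibrosarcomas), where 25.5%, 15.2% and 32.2% of all microRNAs rose, with list medians of -0.11 in the granulomas, 1.34 in the *Spalax* fibrosarcomas and 0.69 in the mouse fibrosarcomas. miR-322-5p, which targets Cul2 of the ubiquitin ligase that degrades the factor, rose by 3.13, 3.43 and 1.43 (limma adjusted p = 0.00355, 0.00301 and 0.0219). miR-199a-5p, a Hif1a-targeting microRNA that is also a fibroblast marker here, rose by 3.61 in the granulomas and 2.07 in the mouse fibrosarcomas (limma adjusted p = 0.000596 and 0.00844). miR-17-5p, of the cell-cycle linked miR-17-92 cluster, rose by 2.03 in the *Spalax* fibrosarcomas (limma adjusted p = 0.0107). Under the other fits 2 to 5 members rose in *Spalax* and 2 to 7 in mice, the most under total scaling, and 0 fell. Of all microRNAs, 262 of 451 rose under total scaling in the granulomas, 198 of 451 in the *Spalax* fibrosarcomas and 421 of 588 in the mouse fibrosarcomas.

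**Figure D4:**
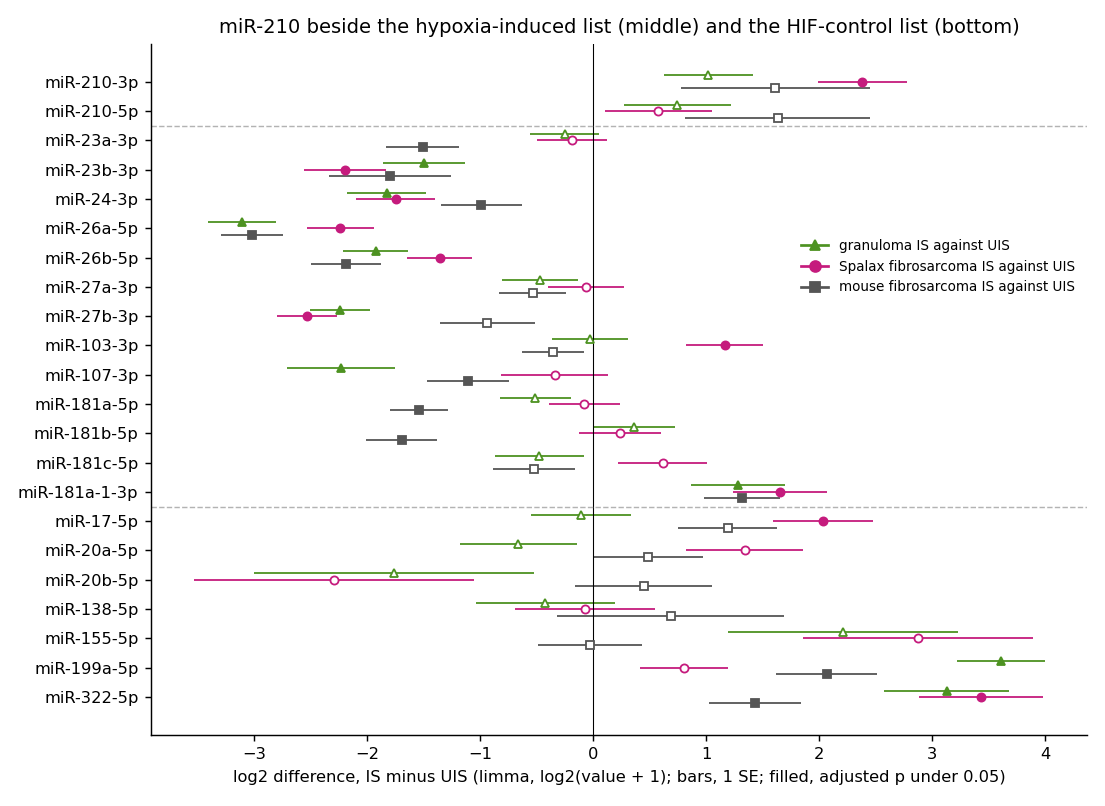
Log2 differences of IS minus UIS (limma on log2(value + 1), bars 1 SE) of miR-210 (top), the 13 hypoxia-induced names (middle) and the 7 names acting on Hif1a or its breakdown (bottom), for the granulomas (triangles), *Spalax* fibrosarcomas (circles) and mouse fibrosarcomas (squares), with filled symbols past an adjusted p of 0.05. Both miR-210 arms lay above 0 in all 3 comparisons, whereas miR-23b-3p, miR-24-3p and both miR-26 names passed the threshold below 0 in all 3 on the deposited scale. Of these names, miR-26a-5p alone lay below 0 in all 3 under total scaling too. On the deposited scale miR-23a-3p, miR-27a-3p, miR-27b-3p, miR-107-3p and miR-181a-5p also lay below 0 in all 3, without passing in each.

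The microRNAs whose levels followed miR-210-3p most closely differed between the species. Over the 8 *Spalax* libraries the highest Pearson correlations of log2(value + 1) were those of miR-301a-3p (0.975), miR-350-3p (0.959), miR-148b-5p (0.957), miR-615-3p (0.956) and miR-148b-3p (0.952). miR-210-5p came 93rd of the other names there, with 0.726. Over the 6 mouse libraries miR-210-5p came first (0.979), followed by miR-2137 (0.943), miR-5126 (0.942), miR-6538 (0.917) and miR-183-5p (0.917). The points share animals and the contrast of lesion with muscle, so these values describe the libraries and carry no test. Of these, miR-301a-3p, chosen on the *Spalax* libraries, had log2 differences of 1.62 in granuloma IS and 3.13 in fibrosarcoma IS of *Spalax*, given as a description, and rose by 1.84 in the mouse fibrosarcomas (limma adjusted p = 0.00736). miR-615-3p, from the Hoxc cluster and chosen in the same way, had 2.86 and 4.93 in *Spalax* and stood at 0.98 in mice (limma adjusted p = 0.595).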

How the data were processed

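Small RNA libraries (TruSeq Small RNA kit) were mapped with mirDeep and compared with DESeq2 by the authors. The submitters' processing notes name the build GRCm38, and settings are not given in the sources used here. The authors deposited a signal per microRNA, the reads divided by a DESeq2 size factor. All values (100%) were whole multiples of a library's step within 0.01, so that reads were recovered. The *Spalax* table was normalised over 14 libraries, of which 13 are columns, and the mouse table over its 6. Limma 3.58.1 (R 4.3.3) with a trend was run on log2(value + 1) for names that reached 10 in 2 or more *Spalax* (or joint) or 3 or more mouse libraries, with Benjamini-Hochberg adjustment over all names tested (447, 547 and 607) and a threshold of 0.05. All *Spalax* libraries shared a fit. The main fits treated the IS and UIS libraries of an animal as independent. The pairing entered only the block and the sign-flip tests. The arm ratio was taken on reads plus 0.5, and its tests were exact (scipy 1.17.1). RNAfold 2.7.2 folded the hairpin. Fits were tested on simulated data. Alternatives were edgeR 4.0.16, DESeq2 1.42.0, other scalings, filters and pseudocounts, the block and leaving out each library.

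The pairing of IS with UIS comes from the animal numbers in the labels. Deviations of same-numbered libraries from their group means correlated at 0.0933 (granuloma), 0.00405 (*Spalax* fibrosarcoma), -0.107 (M1023) and 0.122 (M512). One mouse UIS column fits its group but no title, and was left unpaired. Reads of replicates differed well beyond sampling noise (lowest chi-square over its degrees of freedom, 327.1). Groups hold 2 or 3 animals, so p-values rest on few animals. The members and lists were chosen with earlier results of these data known. Beside both arms, the rule named the 3 largest changes past the threshold of each list and comparison, and the 5 names most correlated with miR-210-3p in each species.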

Additional observations from a re-analysis of the deposited data

How the results depend on the processing

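Of 356 refits over 23 results, 320 kept the direction and the side of the threshold. Only miR-210-3p in the *Spalax* fibrosarcomas and within animals had passed at first, so most of the 320 had merely stayed short of the threshold. The exact test of the arm ratio between species could not pass in any refit, as it cannot go below 0.0571. Both arms stayed higher in IS than in UIS in all 3 comparisons under every alternative run. With libraries scaled to total reads, the granuloma differences were 2.86 (3p) and 2.57 (5p), the *Spalax* fibrosarcoma 5p difference 2.25 and the mouse differences 3.99 for each arm, all past the threshold. Less the median of all microRNAs, miR-210-3p was then at 0.84 in granuloma and 2.63 in *Spalax* fibrosarcoma, against 0.89 and 2.61 on the deposited scale. That scaling also changed the calls over all names, from 114 rises among 216 to 262 among 308 in the granulomas, from 68 among 167 to 198 among 236 in the *Spalax* fibrosarcomas, and from 176 among 316 to 421 among 451 in mice. DESeq2 passed miR-210-3p in the granulomas (1.03), both mouse arms (2.09 and 2.19) and granuloma against fibrosarcoma IS (-1.05). edgeR passed the mouse arms with TMM factors (2.18 and 2.27) and miR-210-5p with DESeq2 size factors (2.19). With the replicate block the mouse differences were 2.33 and 2.54, and the miR-210-3p difference of changes between *Spalax* and mouse fibrosarcoma turned to -0.082; it changed no other call of either arm. Fitted on the muscles alone, miR-210-5p passed between species (1.39). The miR-210-5p difference between fibrosarcomas of both species turned to -0.037 in edgeR with DESeq2 size factors, -0.038 in DESeq2 and -0.00023 in edgeR with TMM factors. The difference of changes within *Spalax* passed for 17 microRNAs in limma, 69 in DESeq2, 32 under total scaling, 5 with the block, 0 with pseudocount 0.1 or without the filter (89 and 107 at an unadjusted p under 0.05) and 0 to 35 with a library left out, and that between *Spalax* and mouse fibrosarcoma for 158 in limma and 67 in edgeR with TMM factors. Leaving out 1 library at a time, the mouse difference ranged from 0.91 to 2.56 for miR-210-3p and from 0.87 to 2.55 for miR-210-5p, lowest without M512 and highest without M1019, the omission that passed both arms. Between fibrosarcomas of both species miR-210-3p ranged from 0.42 to 2.12 (past the threshold without M512, limma adjusted p = 0.0274) and miR-210-5p from -0.48 to 1.23, turning also without Sp2230 (-0.059). The *Spalax* minus mouse fibrosarcoma change of miR-210-3p ranged from -0.082 to 1.62, and its granuloma minus mouse change from -1.44 to 0.26. Within *Spalax*, the miR-210-5p difference of changes ranged from -0.34 to 0.67 and its IS difference from -0.79 to 0.21, the ends lying with Sp2240 or Sp2230 left out. Without 1 animal the mean change within animals was 1.79 to 2.10, where 5 pairs cannot go below p = 0.0625 in the exact test, and the arm ratio of *Spalax* against mouse was -0.12 to 0.013. The block cannot be fitted to comparisons between animals. Apart from the constructions named, the cause was not tested. The lowest library held 39 miR-210-5p reads, and groups held 2 or 3 animals.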
